A study of Mus musculus with 20 samples.

Results

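The 10 genes described here are targets of the hypoxia-inducible factors (HIF) whose products act outside glycolysis: Vegfa, Adm, Hilpda, P4ha1, Ero1a, Ankrd37, Bnip3, Bnip3l, Ndrg1 and Higd1a. They were taken by symbol, matched to Entrez gene IDs, and are 10 of the 23090 genes with counts in each of 20 libraries. The set was selected on the levels and CBPi responses of hypoxia genes in these same libraries, so its counts and medians describe the chosen genes, and its p-values, taken from fits over all genes, are not independent evidence.

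The libraries held poly-A RNA of myeloid-derived suppressor cells sorted from subcutaneous tumours of female SCID.beige mice, injected at 6 to 8 weeks of age. SCID.beige mice lack T and B cells and functional NK cells. All 4 groups of 5 libraries share that host and a tumour grown from 5000000 injected cells of CT26 (a colon carcinoma line of the mouse) or of MDA.MB.231-X1.1 (from a triple-negative breast cancer line of human origin), and the labels tie no library to either. The first group is mMDSC (CD45+CD11b+Ly6C+Ly6G-F4/80-) of mice given the vehicle MCT, and the second is mMDSC of mice given GNE-781 (here CBPi), which blocks the bromodomains of CBP and EP300, paralogous histone acetyltransferases, at 25 mg/kg. The other groups are gMDSC (CD45+CD11b+Ly6C+Ly6G+F4/80-) after vehicle and after CBPi. Oral dosing, BID, lasted 7 days and began once tumours averaged 150 to 200 mm3. Libraries carry the numbers 1 to 5 (vehicle) and 6 to 10 (CBPi) of their titles. Nothing says which came from separate mice, so p-values measure the spread between these samples, part of which may be technical.

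HIF is a pair of subunits, an oxygen-sensitive alpha subunit such as HIF-1α (Hif1a) and the stable partner ARNT. With oxygen, prolyl hydroxylases (the Egln genes) mark the alpha subunit for destruction through VHL. Without it, the pair binds the core sequence A/GCGTG near its targets and recruits CBP and EP300, the proteins whose bromodomains GNE-781 occupies. Tumour myeloid cells are often found in poorly oxygenated tissue, where HIF targets serve vessel growth, lipid storage, collagen and disulfide chemistry, and turnover of mitochondria.

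Total counts per library ran from 13507950 to 23234474 in vehicle mMDSC, from 19489714 to 26635889 in CBPi mMDSC, from 12372630 to 23269881 in vehicle gMDSC and from 19740131 to 22430749 in CBPi gMDSC. The populations were checked against markers. Cxcr2, a neutrophil chemokine receptor, was at 956 to 1867 CPM (counts per 1000000 counts, with library totals scaled by TMM over all 20 libraries) in vehicle gMDSC and at 0.233 to 2.72 CPM in vehicle mMDSC. Ly6g, whose product defined the gMDSC gate, was at 5.34 to 9.20 CPM in 4 vehicle gMDSC libraries and at 0.438 CPM in library 5. In CBPi gMDSC Ly6g was at 0.529 to 2.14 CPM, below those 4 libraries (log2 fold change -2.37 ± 0.70 (SE), adjusted p = 0.0502), and Cxcr2 fell (-0.76 ± 0.20 (SE), adjusted p = 0.0314). Adgre1, the gene of F4/80, on which the gates were negative, was at 438 to 1520 CPM over all 20 libraries, and the macrophage gene C1qa at 1597 to 5615 CPM. Bulk RNA cannot tell fewer cells of a type from less RNA per cell.

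The sequence before the start of 4 of the genes is printed here because most members rose together in gMDSC and the HIF core can be looked for in it. Of the 10 genes, 8 had a window in the RefSeq table of assembly GRCm38.p6 (Bnip3l and Ndrg1 had none), with 10 windows in all. The 250 bases before the start were searched on both strands for ACGTG and GCGTG, and matches may overlap each other. All 8 genes had a match in at least 1 window, and 8 of the 10 windows had one, beside 38.6% of 32851 windows of the same length in the table (16.6% for ACGTG and 28.2% for GCGTG). The members' windows held 48.4% to 80.8% G and C. The share in the table is per window, not per gene, and was not matched for G and C. The 10 genes were chosen as HIF targets, so matches in them are not independent evidence, and enrichment was not tested. The 4 printed windows are those with a match that end at the outermost start of the gene. They run 5′ to 3′ on the gene's strand, and capitals mark the matches, with their reverse complements.
Adm (chr7:110627407-110627656, plus strand): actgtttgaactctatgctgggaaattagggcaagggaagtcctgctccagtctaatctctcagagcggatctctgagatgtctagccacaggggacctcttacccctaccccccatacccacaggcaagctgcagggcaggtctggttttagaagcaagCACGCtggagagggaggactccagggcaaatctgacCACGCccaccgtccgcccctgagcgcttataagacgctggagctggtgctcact
Bnip3 (chr7:138909507-138909756, minus strand): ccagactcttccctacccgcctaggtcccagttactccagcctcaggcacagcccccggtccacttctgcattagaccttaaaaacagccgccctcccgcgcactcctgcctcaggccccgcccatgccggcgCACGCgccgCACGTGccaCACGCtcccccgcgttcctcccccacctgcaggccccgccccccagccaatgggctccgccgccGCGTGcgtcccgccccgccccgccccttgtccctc
Ero1a (chr14:45318573-45318822, minus strand): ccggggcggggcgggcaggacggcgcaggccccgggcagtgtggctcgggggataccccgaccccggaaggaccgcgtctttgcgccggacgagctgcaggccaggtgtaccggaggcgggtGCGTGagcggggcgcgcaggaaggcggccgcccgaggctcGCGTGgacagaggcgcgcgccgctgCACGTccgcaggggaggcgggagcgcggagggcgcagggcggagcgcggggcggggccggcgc
Higd1a (chr9:121857797-121858046, minus strand): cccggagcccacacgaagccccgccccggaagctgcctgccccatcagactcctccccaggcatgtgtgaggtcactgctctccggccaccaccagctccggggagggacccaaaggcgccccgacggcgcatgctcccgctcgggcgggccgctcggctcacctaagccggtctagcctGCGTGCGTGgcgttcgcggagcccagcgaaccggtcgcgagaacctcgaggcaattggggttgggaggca
The Adm window held 2 matches, both GCGTG on the reverse strand. In Bnip3 the 2 matches to ACGTG lay on opposite strands of 1 site and overlapped, beside 3 matches to GCGTG. The Ero1a window held 1 match to ACGTG and 2 to GCGTG, and the 2 matches in Higd1a overlapped in 1 stretch. The outermost windows of Vegfa and Hilpda held neither sequence, and a second window of each, which lies in or reaches into the gene, held both. A match is only a run of letters, not a bound site.

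CBPi against vehicle was compared in each population to describe how levels differed between cells from mice given CBPi and cells from mice given vehicle. In gMDSC, 9 of the 10 genes rose with CBPi and none fell, where 4.18% of the 11694 genes tested rose and 5.52% fell (edgeR quasi-likelihood test, adjusted p under 0.05). For 8 of them every CBPi library lay above every vehicle library, as did 4.94% of the genes tested. The median log2 fold change of the members was 2.58, against 0.003 for all genes tested. In mMDSC, 4 rose (Vegfa, Hilpda, Ero1a and Ndrg1) and none fell, where 3.02% rose and 5.54% fell among 11912 genes tested, and 6 were higher in every CBPi library, as were 4.20% of the genes tested. The median in mMDSC was 0.51, against 0.008 for all genes. All 10 passed the filter on low counts in both populations, but Adm did so in each only through its CBPi libraries. Adm is among the 9 that rose in gMDSC, among the 8 and the 6 without overlap, and in both medians. Its place in them depends on the group where it is high, and is not support.

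**Figure D1:**
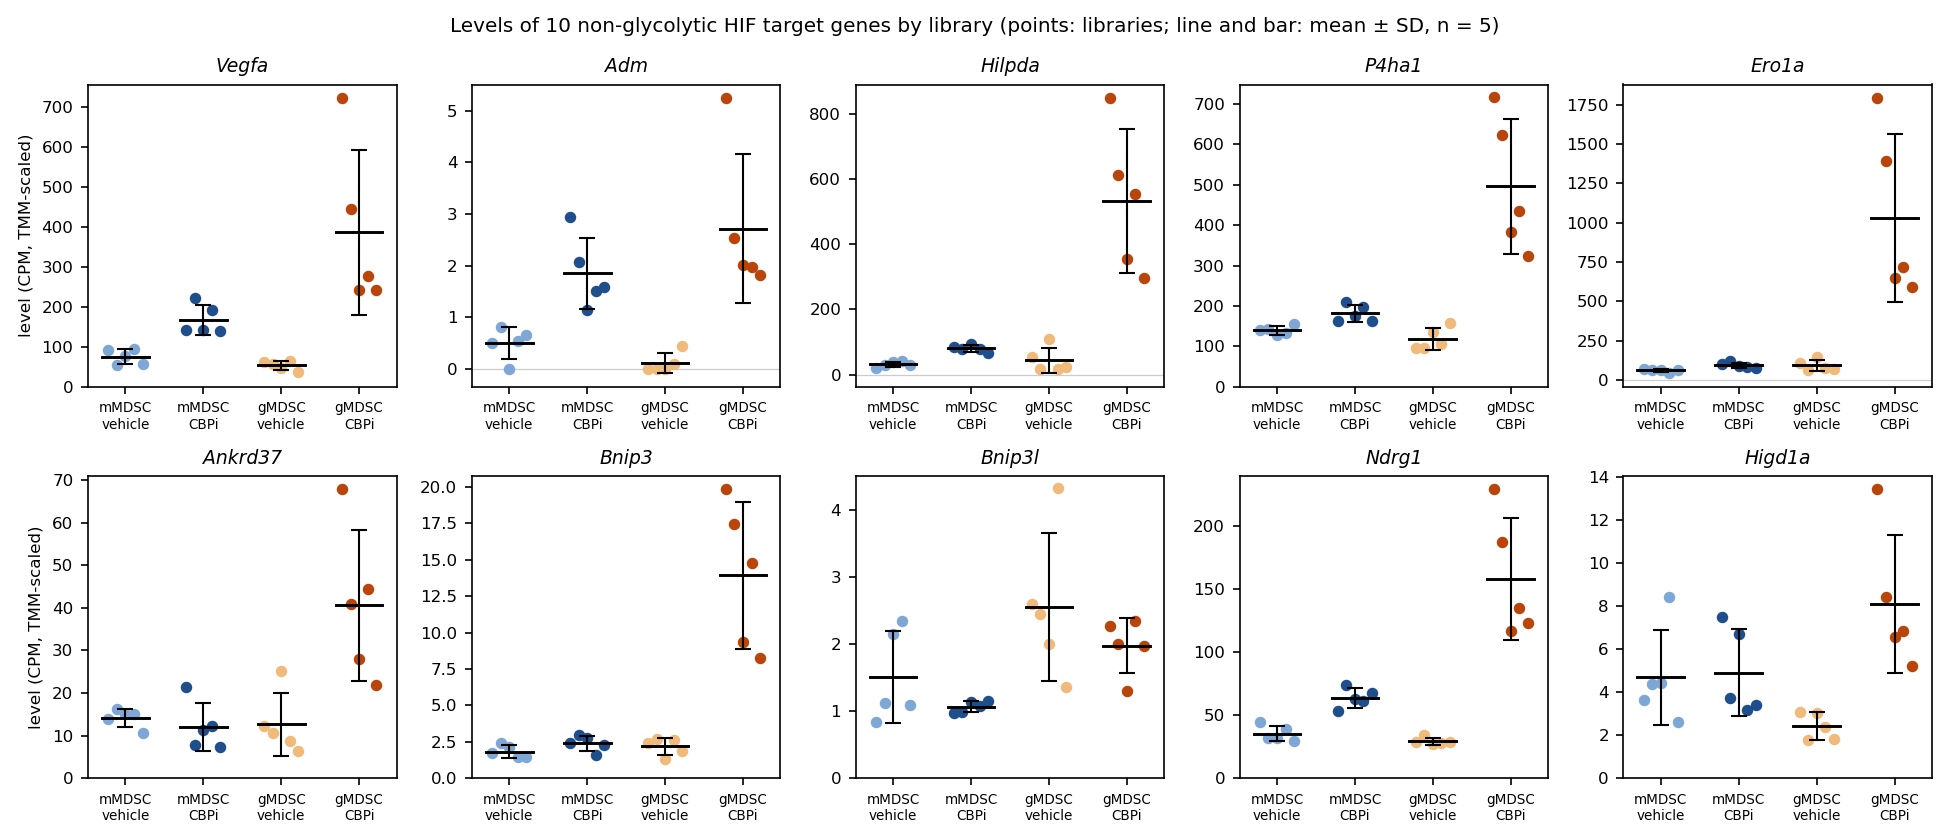
Levels of the 10 genes in CPM (TMM-scaled) on the y axes, by group on the x axes. Points are libraries in the order of their numbers, and lines and bars are the mean ± SD of 5. In every panel except Bnip3l the CBPi gMDSC group has the highest mean, and its library 6 is the highest in 9 of the 10 genes.

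Vegfa and Adm encode secreted signals. Vegfa (GeneID 22339, chromosome 17, 46016993 to 46032377, positions on GRCm38.p6 here and below), the main growth factor for blood vessels, was at 63.1, 56.9, 47.7, 63.9 and 36.6 CPM in vehicle gMDSC. With CBPi it was at 722, 446, 243, 277 and 243 CPM, all above the vehicle libraries, with library 6 the highest. The log2 fold change was 2.89 ± 0.32 (SE), adjusted p = 0.000162. In vehicle mMDSC the levels were 91.6, 54.6, 77.8, 94.4 and 56.8 CPM, and with CBPi 142, 222, 142, 191 and 139 CPM. These groups did not overlap either, with a smaller rise (1.15 ± 0.20 (SE), adjusted p = 0.00325).

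Adm (GeneID 11535, chromosome 7, 110627657 to 110629820) encodes adrenomedullin, a peptide that widens vessels. Per kilobase it was the lowest member in both vehicle groups. Vehicle gMDSC libraries 1, 2 and 3 had no count, which allows up to 0.300 CPM at 3 counts in 1 library, library 4 had 1 count and library 5 had 10. The CBPi gMDSC libraries 6 to 10 had 81, 47, 40, 37 and 38 counts, or 5.24, 2.53, 2.01, 1.97 and 1.83 CPM. The fitted log2 fold change of 4.34 ± 0.96 (SE), adjusted p = 0.0141 rests on these few vehicle counts, and without vehicle library 5 it was 6.49. In mMDSC the levels were 0.491, 0.814, 0, 0.533 and 0.659 CPM with vehicle and 2.94, 2.08, 1.14, 1.51 and 1.58 CPM with CBPi. The mMDSC groups did not overlap, but the difference missed the threshold (1.84 ± 0.66 (SE), adjusted p = 0.113). A gene model, Gm28863, overlaps Adm, and its reads could not be told apart without strand.

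Hilpda (GeneID 69573, chromosome 6, 29272488 to 29275449) encodes a lipid droplet protein that inhibits the lipase ATGL. In vehicle gMDSC it varied widely, at 52.5, 16.9, 108, 17.6 and 22.4 CPM in libraries 1 to 5, with libraries 1 and 3 above the others. With CBPi it was at 849, 613, 354, 554 and 297 CPM, and no library overlapped the vehicle group. The log2 fold change was 3.66 ± 0.53 (SE), adjusted p = 0.00126. Vehicle mMDSC libraries were at 21.4, 30.5, 37.6, 41.8 and 28.3 CPM and CBPi mMDSC libraries at 84.3, 76.9, 93.2, 79.0 and 66.7 CPM. Hilpda had the smallest p of the members in mMDSC (1.32 ± 0.17 (SE), adjusted p = 0.000536).

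P4ha1 and Ero1a act on proteins in the endoplasmic reticulum. P4ha1 (GeneID 18451, chromosome 10, 59323197 to 59373304), the catalytic subunit of collagen prolyl 4-hydroxylase, was at 95.5, 95.6, 136, 106 and 158 CPM in vehicle gMDSC and at 717, 623, 382, 435 and 325 CPM with CBPi. The groups were far apart, and the log2 fold change was 2.10 ± 0.25 (SE), adjusted p = 0.000276. Its mMDSC levels were 139.7, 144, 128, 132 and 154 CPM with vehicle and 163, 209.8, 175, 198 and 164 CPM with CBPi. Every CBPi mMDSC library was above every vehicle one, by a margin of 163 against 154 CPM at the edge, and the test missed the threshold (0.37 ± 0.11 (SE), adjusted p = 0.0571).

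Ero1a (GeneID 50527, chromosome 14, 45283087 to 45318572), the oxidase that drives disulfide formation through protein disulfide isomerase, was at 109.7, 64.3, 146, 76.1 and 71.7 CPM in vehicle gMDSC and at 1792, 1396, 650.3, 719.6 and 593 CPM with CBPi. No library overlapped, and libraries 6 and 7 lay well above the other 3 with CBPi. The log2 fold change was 3.50 ± 0.36 (SE), adjusted p = 0.000104. In mMDSC the levels went from 68.0, 65.0, 64.1, 43.7 and 61.1 CPM to 102, 118, 91.4, 84.9 and 77.3 CPM, a smaller rise without overlap (0.64 ± 0.15 (SE), adjusted p = 0.0196).

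Bnip3, Bnip3l and Higd1a encode mitochondrial proteins. Bnip3 (GeneID 12176, chromosome 7, 138890836 to 138909506), a receptor that marks mitochondria for autophagy, was at 2.40, 2.71, 1.34, 2.65 and 1.84 CPM in vehicle gMDSC and at 19.8, 17.5, 9.33, 14.8 and 8.22 CPM with CBPi. The 5 CBPi libraries were all above the vehicle libraries (2.70 ± 0.37 (SE), adjusted p = 0.000783). In mMDSC the groups overlapped, at 1.72, 2.40, 2.16, 1.44 and 1.47 CPM with vehicle and 2.43, 2.95, 2.75, 1.58 and 2.27 CPM with CBPi (0.38 ± 0.35 (SE), adjusted p = 0.577). The gene model Gm18258 overlaps Bnip3.

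Bnip3l (GeneID 12177, chromosome 14, 66985238 to 67008877), the paralog of Bnip3 also called NIX, did not pass the test in either population. It was at 2.60, 2.45, 2.00, 4.33 and 1.36 CPM in vehicle gMDSC, at 2.27, 1.99, 1.30, 2.34 and 1.97 CPM in CBPi gMDSC, at 0.835, 1.12, 2.16, 2.35 and 1.09 CPM in vehicle mMDSC and at 0.979, 0.984, 1.14, 1.08 and 1.15 CPM in CBPi mMDSC. The groups overlapped within both populations, with log2 fold changes of -0.32 ± 0.47 (SE), adjusted p = 0.713 in gMDSC and -0.50 ± 0.44 (SE), adjusted p = 0.546 in mMDSC. Its value is uncertain, since GeneID 102641641, which has no symbol in the table, had the same count in 14 of the 20 libraries and differed by at most 2 counts in the others.

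Higd1a (GeneID 56295, chromosome 9, 121848557 to 121857796), a protein of the respiratory chain complexes, was at 3.10, 1.78, 3.05, 2.38 and 1.84 CPM in vehicle gMDSC and at 13.5, 8.41, 6.57, 6.86 and 5.24 CPM with CBPi. Those groups did not overlap (1.78 ± 0.38 (SE), adjusted p = 0.0122). In mMDSC they did, at 3.63, 4.38, 4.45, 8.42 and 2.60 CPM and 7.48, 3.72, 6.69, 3.19 and 3.42 CPM, with vehicle library 4 the highest (0.05 ± 0.37 (SE), adjusted p = 0.959). The gene model Gm47112 overlaps Higd1a.

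Ndrg1 and Ankrd37 belong to neither class. Ndrg1 (GeneID 17988, chromosome 15, 66929318 to 66969641), a stress-responsive cytoplasmic protein, was at 28.9, 34.2, 27.0, 28.3 and 28.8 CPM in vehicle gMDSC and 229.7, 187, 117, 135 and 123 CPM with CBPi. No library overlapped, and Ndrg1 had the smallest p of the members in gMDSC (2.46 ± 0.21 (SE), adjusted p = 2.23e-05). In mMDSC it went from 44.7, 32.0, 32.1, 39.0 and 29.7 CPM to 53.1, 74.0, 62.7, 61.5 and 67.7 CPM, also without overlap (0.84 ± 0.15 (SE), adjusted p = 0.00362). Ankrd37 (GeneID 654824, chromosome 8, 45996908 to 46000414), an ankyrin repeat protein, was at 12.2, 10.7, 25.2, 8.74 and 6.48 CPM in vehicle gMDSC and 67.8, 40.9, 27.9, 44.3 and 21.9 CPM with CBPi. Vehicle library 3 lay above CBPi library 10, so the groups overlapped, although the gene passed the test (1.72 ± 0.39 (SE), adjusted p = 0.0149). In mMDSC it was at 13.9, 16.2, 15.2, 15.0 and 10.7 CPM and 21.3, 7.76, 11.5, 12.3 and 7.42 CPM, with CBPi library 6 above all others (-0.25 ± 0.27 (SE), adjusted p = 0.653). Ufsp2 overlaps Ankrd37.

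Library 6 was the highest CBPi gMDSC library for 9 of the 10 genes (library 9 for Bnip3l), with or without TMM scaling, and library 10 the lowest for 7. Libraries 6 and 7 had TMM factors of 0.739 and 0.827, and the other 3 had 0.953 to 0.970. Without libraries 6 and 7, an alternative added after the data were seen, 6 of the 10 genes passed in gMDSC, all higher. Their log2 fold changes were then 2.29 for Vegfa, 3.26 for Hilpda, 1.73 for P4ha1, 2.85 for Ero1a, 2.34 for Bnip3 and 2.13 for Ndrg1. Adm (3.91, adjusted p = 0.12), Ankrd37 (1.36, adjusted p = 0.135) and Higd1a (1.41, adjusted p = 0.135) no longer passed, while the genes that rose fell in number from 489 to 111 over the whole table. Without vehicle libraries 3 and 5, also added after the data were seen, 9 passed. Leaving out any 1 library kept the call of each of the 9 genes in gMDSC and of the 4 in mMDSC. With all 20 libraries in 1 model, Hilpda (adjusted p = 0.0611) and Ero1a (adjusted p = 0.222) lost their calls in mMDSC.

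Markers of other cells moved with CBPi in gMDSC. Beside the counts below, 4.18% of all genes tested rose and 5.52% fell in gMDSC, and 3.02% and 5.54% in mMDSC. The epithelial list summed to 24.6 to 60.0 CPM in vehicle and 6.83 to 12.8 CPM in CBPi libraries, with 2 of 5 tested genes lower, among them Krt18, at 17.7 to 48.5 CPM in vehicle and 0.452 to 4.04 CPM with CBPi. The lymphocyte and NK list summed to 20.8 to 57.9 CPM and 4.64 to 8.73 CPM, with 2 of 5 tested genes lower and Cd8a at 0 in every gMDSC library. The neutrophil list summed to 9398 to 35890 CPM in vehicle and 7713 to 14610 CPM with CBPi (3 of 10 lower), and the macrophage list to 34710 to 78680 CPM and 17100 to 32220 CPM (3 of 10 lower). Abundant genes weigh most in these sums: in vehicle library 3, the highest for both lists, S100a9 was at 19670 CPM and Apoe at 55700 CPM. The genes lower were Cxcr2, Cxcr1 and Il1f9, and Apoe, Ms4a7 and Trem2. S100a8 (adjusted p = 0.123) and S100a9 (adjusted p = 0.0719) did not pass. In each list 1 of 10 genes had a positive estimate. The monocyte list, at 3977 to 7130 CPM in vehicle and 4898 to 5900 CPM with CBPi, had 1 of 10 higher and 3 lower in gMDSC. Its F13a1 rose (3.36 ± 0.52 (SE), adjusted p = 0.00203), from 0.763 to 4.42 CPM in vehicle libraries to 12.7 to 52.9 CPM, and Ccr2 fell (-2.64 ± 0.29 (SE), adjusted p = 0.000195). The dendritic cell list summed to 7.63 to 25.1 CPM and 17.7 to 38.3 CPM, with 1 of 5 tested genes higher, Ccr7 (2.71 ± 0.80 (SE), adjusted p = 0.0491). These genes, Ly6g and Cxcr2 were named after their values were seen. In mMDSC the macrophage list summed to 22620 to 32470 CPM and 19450 to 24370 CPM (2 of 10 higher, 4 lower), and the lymphocyte and NK list to 12.6 to 28.9 CPM and 1.88 to 13.8 CPM (1 of 4 lower). The monocyte list summed to 8015 to 9667 CPM and 5931 to 7596 CPM there (4 of 10 lower), and the erythroid and platelet list to 25.9 to 53.9 CPM and 83.1 to 266.8 CPM (1 of 4 higher). Most of that last sum was Pf4, the 1 gene higher (1.84 ± 0.31 (SE), adjusted p = 0.00261). Pf4, also named after its value was seen, was at 24.2 to 49.4 CPM in vehicle and 79.4 to 258.9 CPM in CBPi mMDSC. The haemoglobin genes and Alas2 were at or below 1.86 CPM in every mMDSC library. The part of these shifts in the members' changes was not tested.

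**Figure D2:**
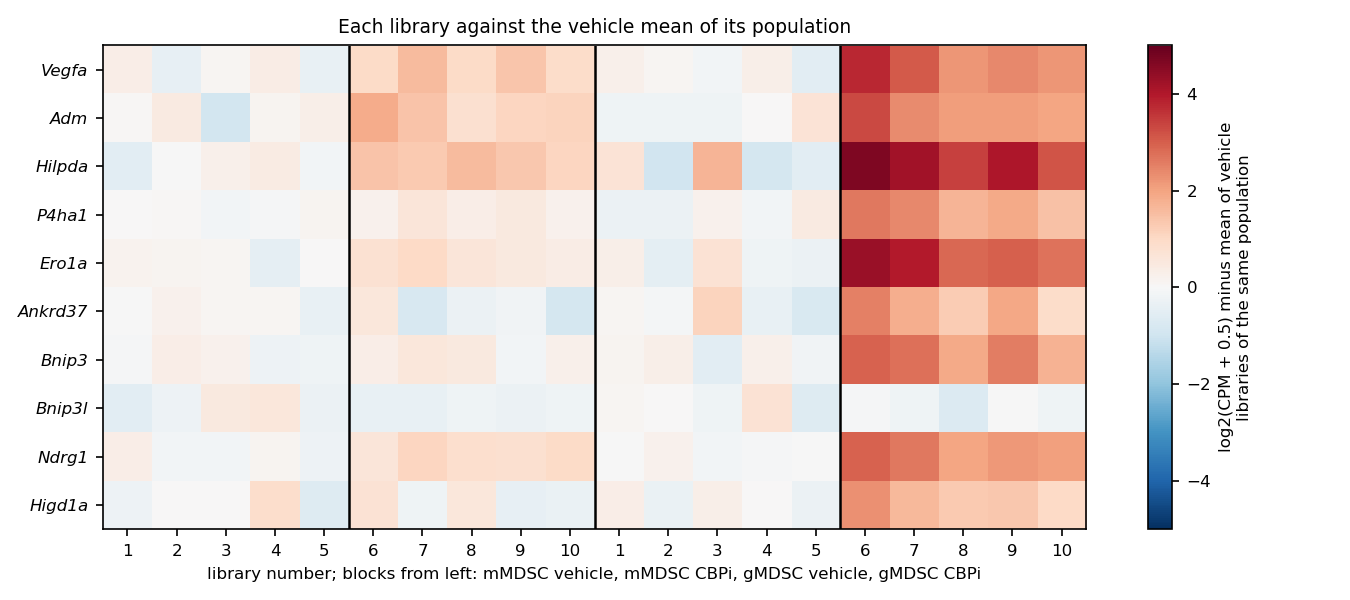
Each column is a library, each row a gene, and colour is log2(CPM + 0.5) minus the mean of the vehicle libraries of the same population. The CBPi gMDSC block is red for every gene except Bnip3l, darkest in library 6, and vehicle gMDSC library 3 stands out for Hilpda and Ankrd37.

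The difference between the responses was tested over all 20 libraries. It was in the direction of a larger rise in gMDSC for all 10 genes and passed the test for 5, against 0.497% of 12688 genes in that direction and 0.229% in the other. Of these, Ero1a differed by 2.81 ± 0.40 (SE), adjusted p = 0.00153, and Bnip3 by 2.29 ± 0.45 (SE), adjusted p = 0.0186. Vegfa differed by 1.69 ± 0.38 (SE), adjusted p = 0.04, P4ha1 by 1.69 ± 0.27 (SE), adjusted p = 0.00339 and Ndrg1 by 1.58 ± 0.25 (SE), adjusted p = 0.00339. The members' median difference was 1.81, against -0.04 for all genes tested. Adm is among the 10 and in this median. It passed the filter here too only through its CBPi libraries, so its place in them is not support.

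Hilpda (2.29 ± 0.57 (SE), adjusted p = 0.0578), Ankrd37 (1.92 ± 0.50 (SE), adjusted p = 0.0768), Higd1a (1.68 ± 0.52 (SE), adjusted p = 0.173) and Adm (2.49 ± 1.17 (SE), adjusted p = 0.421) missed the threshold. Bnip3l was at 0.13 ± 0.59 (SE), adjusted p = 0.957. Without CBPi gMDSC libraries 6 and 7, P4ha1, Ero1a and Ndrg1 passed, and Vegfa (adjusted p = 0.158) and Bnip3 (adjusted p = 0.142) did not. The Vegfa call also ended without any 1 of the vehicle gMDSC libraries, of vehicle mMDSC libraries 1 and 3, of CBPi mMDSC libraries 6, 8 and 10, or of CBPi gMDSC libraries 6 and 7 (adjusted p = 0.0502 to 0.0785). The Bnip3 call ended without CBPi gMDSC library 7 (adjusted p = 0.0534), when 3 genes passed. Without vehicle gMDSC library 3, Hilpda (adjusted p = 0.0021) and Ankrd37 (adjusted p = 0.0123) passed.

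**Figure D3:**
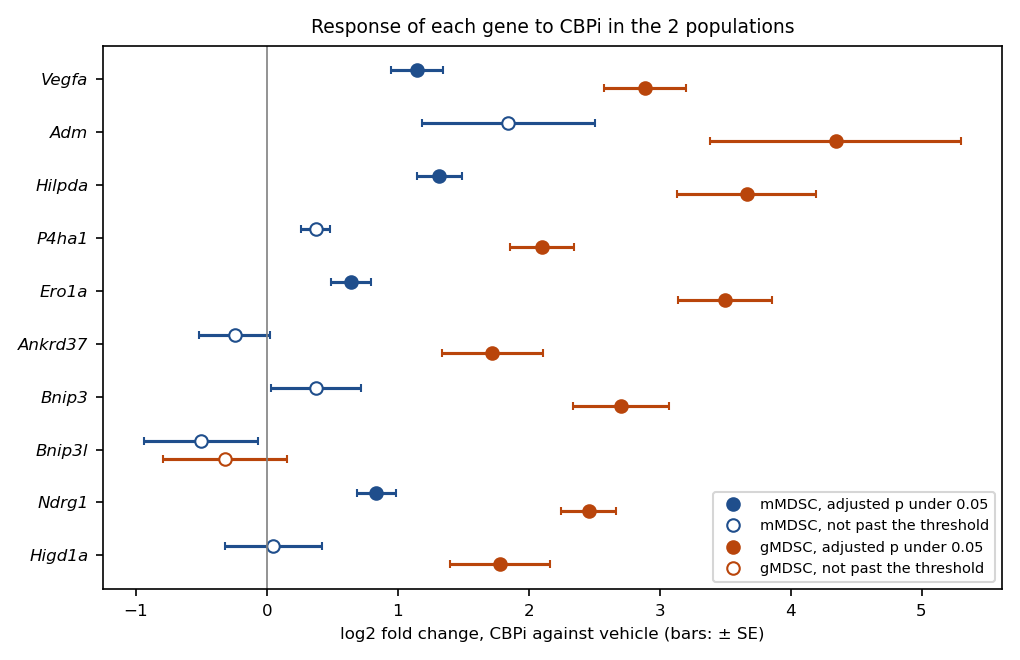
Log2 fold change with CBPi on the x axis, with bars of ± 1 SE, for each gene on the y axis in mMDSC (blue) and gMDSC (orange). Filled points passed an adjusted p of 0.05. The gMDSC point lies to the right of the mMDSC point for all 10 genes, nearest for Bnip3l.

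The 2 populations were compared within each treatment, and these comparisons share libraries with those above. With vehicle, none of the 9 members tested (Adm had too few counts) passed as higher or lower in gMDSC (edgeR), where 13.6% of 11576 genes were higher and 8.08% lower. At an unadjusted p under 0.05 there were 3 members, Ero1a (0.65 ± 0.22 (SE), adjusted p = 0.0581), Vegfa (-0.47 ± 0.21 (SE), adjusted p = 0.145) and Higd1a (-0.95 ± 0.43 (SE), adjusted p = 0.144). Ero1a passed with DESeq2 (adjusted p = 0.0271) and without vehicle gMDSC library 2 (adjusted p = 0.0385). With limma-voom no member passed.

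With CBPi, 7 members were higher in gMDSC and none lower, where 20.1% of 11895 genes were higher and 19.1% lower. For 8 members, Bnip3l among them, every gMDSC library lay above every mMDSC library, as it did for 14.4% of genes. The differences that passed were 3.49 ± 0.31 for Ero1a (adjusted p = 1.87e-06), 2.79 ± 0.25 for Hilpda (adjusted p = 2.12e-06), 2.59 ± 0.30 for Bnip3 (adjusted p = 2.16e-05) and 1.80 ± 0.34 for Ankrd37 (adjusted p = 0.000961). P4ha1 differed by 1.50 ± 0.20, Ndrg1 by 1.36 ± 0.19 and Vegfa by 1.26 ± 0.29. Adm (0.60 ± 0.44 (SE), adjusted p = 0.308), Bnip3l (0.94 ± 0.40 (SE), adjusted p = 0.0808) and Higd1a (0.78 ± 0.34 (SE), adjusted p = 0.0862) did not pass.

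Across the 4 groups, Vegfa, P4ha1 and Ndrg1 had the same order of mean CPM: CBPi gMDSC, CBPi mMDSC, vehicle mMDSC, vehicle gMDSC. In these 3 genes each CBPi group was clear of the group next to it, and the 2 vehicle groups overlapped. For Ero1a, Hilpda and Bnip3 only CBPi gMDSC stood clear of its neighbour in order, and the other 3 groups overlapped in turn. In Ero1a and Hilpda, CBPi mMDSC still lay wholly above vehicle mMDSC, which was not its neighbour. Ankrd37 likewise had CBPi gMDSC apart, at 40.6 ± 17.8 CPM, from vehicle mMDSC at 14.2 ± 2.13 CPM, the next in order. Adm had the 2 CBPi groups overlapping each other and above the 2 vehicle groups. Higd1a and Bnip3l had every neighbouring pair overlapping. Among pairs that were not neighbours, CBPi gMDSC and CBPi mMDSC each lay wholly above vehicle gMDSC in Higd1a. In Bnip3l, vehicle gMDSC and CBPi gMDSC each lay wholly above CBPi mMDSC.

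Levels of different genes were compared only per kilobase of the deposited gene width. Hilpda was the highest member in every group, at 111 ± 27.9 CPM per kilobase in vehicle mMDSC, 278 ± 33.9 in CBPi mMDSC, 151 ± 136 in vehicle gMDSC and 1852 ± 765 in CBPi gMDSC (mean ± SD, n = 5). It overlapped the next gene, P4ha1 in both vehicle groups and Ero1a in CBPi gMDSC, and stood clear of Vegfa in CBPi mMDSC. The width of Hilpda is 288 bases, against 1676 for P4ha1, 1395 for Ero1a and 1260 for Vegfa. Its rank rests on that short width. Ero1a had rank 4 in both mMDSC groups, with vehicle at 43.3 ± 6.92 CPM per kilobase, and rank 2 in CBPi gMDSC at 738 ± 384. Adm was the lowest in both vehicle groups (0.900 ± 0.552 and 0.190 ± 0.342 CPM per kilobase in mMDSC and gMDSC), and Bnip3l in both CBPi groups (1.62 ± 0.123 and 3.01 ± 0.622). The rank of Bnip3l is uncertain, since GeneID 102641641 had nearly the same counts.

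**Figure D4:**
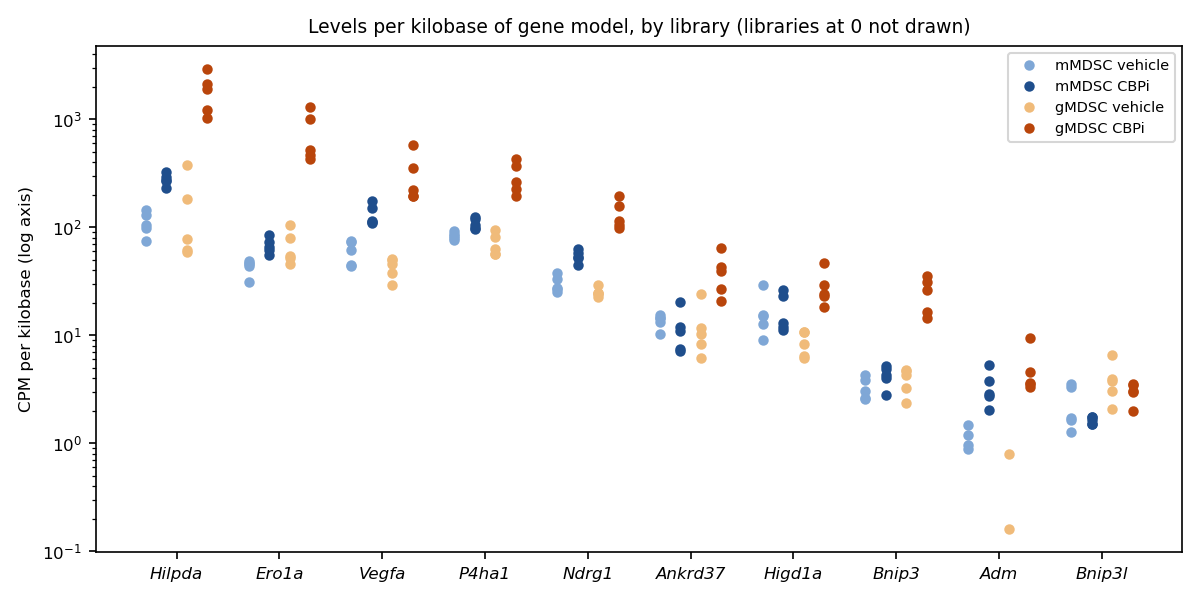
CPM per kilobase of gene width (log y axis) for each gene, with 1 point per library coloured by group. Genes are ordered by their mean in CBPi gMDSC, from Hilpda to Bnip3l, and 4 libraries without an Adm count are not drawn.

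The genes around HIF were then counted in lists chosen with earlier results known. Of 14 genes of the HIF pathway, 12 were tested in each population. Over all genes tested, 4.18% rose and 5.52% fell in gMDSC, and 3.02% rose and 5.54% fell in mMDSC. The response was larger in gMDSC for 0.497%. In gMDSC 4 rose and none fell: the prolyl hydroxylases Egln3 (2.32 ± 0.33 (SE), adjusted p = 0.00108) and Egln1 (1.87 ± 0.30 (SE), adjusted p = 0.00233), Hif1a (1.50 ± 0.30 (SE), adjusted p = 0.00878) and, outside the naming rule, Arnt (1.15 ± 0.24 (SE), adjusted p = 0.0105). Hif1a was at 373 ± 91.8 CPM in vehicle gMDSC and 1027 ± 496 CPM with CBPi. In mMDSC Egln3 (1.25, adjusted p = 0.0234) and Arnt (0.52, adjusted p = 0.0236) rose, and Hif1a, named here after its value was seen, was at -0.25 ± 0.14 (SE), adjusted p = 0.328. Hif1a was the 1 gene of the list whose response differed between populations (1.70 ± 0.35 (SE), adjusted p = 0.0258). The Egln3 call in mMDSC did not pass without any 1 of vehicle mMDSC 2, 3, 5 or CBPi mMDSC 6, 7 (adjusted p up to 0.0627). The Arnt call in mMDSC did not pass without any 1 of vehicle mMDSC 2, 3 or CBPi mMDSC 7, 10 (adjusted p up to 0.068). The Hif1a difference did not pass without CBPi gMDSC 7 (adjusted p = 0.0578).

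Other HIF targets were counted in the same way, with Egln1 and Egln3 in this list too. The shares over all genes tested were again 4.18% up and 5.52% down in gMDSC, and 3.02% up and 5.54% down in mMDSC. For the difference between responses the share was 0.497% toward gMDSC. Of 46 listed, 40 were tested in gMDSC, where 15 rose and 1 fell with a median of 0.62, and 39 in mMDSC, where 3 rose and none fell with a median of 0.16. The smallest p-values in gMDSC belonged to the histone demethylase Kdm4b (1.70 ± 0.24 (SE), adjusted p = 0.00102), Egln3 and the heme oxygenase Hmox1 (1.86 ± 0.28 (SE), adjusted p = 0.00152). In mMDSC they belonged to Cited2, a competitor of HIF for CBP and EP300 (0.85 ± 0.14 (SE), adjusted p = 0.00223), the nuclear receptor Rora (1.68 ± 0.34 (SE), adjusted p = 0.00793) and Egln3. Among glycolytic targets 14 of 20 rose in gMDSC (median 1.34) and 3 of 20 in mMDSC (median 0.22), and none fell. The smallest p-values in gMDSC were those of Pfkl (log2 fold change 2.20), Pfkfb3 (2.50) and Tpi1 (1.74), and in mMDSC those of Pdk1 (0.92), Tpi1 (0.49) and Aldoa (0.53). The response differed between populations for 2 of 40 other targets, Kdm3a (1.86 ± 0.37 (SE), adjusted p = 0.0188) and Hmox1 (1.56 ± 0.36 (SE), adjusted p = 0.0443), and for 6 of 20 glycolytic ones, with the smallest p for Pfkfb3 (2.37 ± 0.35 (SE), adjusted p = 0.00274), Pfkp (1.53 ± 0.32 (SE), adjusted p = 0.0283) and Aldoc (3.66 ± 0.77 (SE), adjusted p = 0.0323). The Tpi1 call in mMDSC did not pass without any 1 of vehicle mMDSC 2, 3, 5 or CBPi mMDSC 6, 8 (adjusted p up to 0.0639). The Aldoa call in mMDSC did not pass without any 1 of vehicle mMDSC 2, 5 or CBPi mMDSC 8 (adjusted p up to 0.0627). The Kdm3a difference did not pass without CBPi gMDSC 7 (adjusted p = 0.0504). The Hmox1 difference did not pass without any 1 of vehicle mMDSC 2, 3, 5 or CBPi mMDSC 8, 9, 10 or vehicle gMDSC 1, 2, 4, 5 or CBPi gMDSC 6, 7 (adjusted p up to 0.0845). The Pfkp difference did not pass without any 1 of vehicle gMDSC 4 or CBPi gMDSC 7 (adjusted p up to 0.0645). The Aldoc difference did not pass without any 1 of vehicle mMDSC 1 or CBPi mMDSC 10 or vehicle gMDSC 1 or CBPi gMDSC 7 (adjusted p up to 0.0578).

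Paralogs, receptors and partners of the members were counted next. Of 38 listed, 28 were tested in each population. In gMDSC, where 4.18% of all genes tested rose and 5.52% fell, 1 rose, P4hb, the disulfide isomerase that is the second subunit of the P4ha1 enzyme and a substrate of Ero1a (1.46 ± 0.25 (SE), adjusted p = 0.00346), and 1 fell, the adrenomedullin co-receptor Ramp1 (-1.61 ± 0.34 (SE), adjusted p = 0.0122). The paralogs Vegfb (-0.70 ± 0.38 (SE), adjusted p = 0.265) and Ero1b (0.33 ± 0.19 (SE), adjusted p = 0.287) did not pass. Of all genes tested in mMDSC, 3.02% rose and 5.54% fell. In mMDSC 2 rose and 5 fell, among them the co-receptor Ramp3 (1.47 ± 0.41 (SE), adjusted p = 0.0409), the VEGF co-receptors Nrp2 (-1.63 ± 0.30 (SE), adjusted p = 0.00454) and Nrp1 (-0.56 ± 0.15 (SE), adjusted p = 0.04), the lipid droplet coat gene Plin2 (-0.77 ± 0.15 (SE), adjusted p = 0.00658) and the Bnip3 partner Bcl2l1 (-0.87 ± 0.18 (SE), adjusted p = 0.00822). Plin2 was at 944 ± 134 CPM in vehicle and 556 ± 104 CPM in CBPi mMDSC, and its response differed between populations (1.39 ± 0.30 (SE), adjusted p = 0.0323), with 0.66 ± 0.24 (SE), adjusted p = 0.102 in gMDSC, a value outside the naming rule. The Ramp3 call in mMDSC did not pass without any 1 of vehicle mMDSC 1, 2, 3, 5 or CBPi mMDSC 6, 8, 9, 10 (adjusted p up to 0.102). The Nrp1 call in mMDSC did not pass without any 1 of vehicle mMDSC 1, 2, 3, 5 or CBPi mMDSC 6, 7, 8, 9, 10 (adjusted p up to 0.0986). The Plin2 difference did not pass without any 1 of vehicle gMDSC 4 or CBPi gMDSC 7 (adjusted p up to 0.0704).

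Genes of the integrated stress and unfolded protein responses, which share the endoplasmic reticulum with Ero1a and P4ha1, were listed for comparison. In gMDSC 3 of 20 rose and 1 fell (median 0.28), where 4.18% of all genes tested rose and 5.52% fell. They included the chaperones Dnajb9 (1.30 ± 0.29 (SE), adjusted p = 0.0154) and Hspa5 (0.60 ± 0.16 (SE), adjusted p = 0.0321), and Sdf2l1 fell (-0.65 ± 0.17 (SE), adjusted p = 0.0321). In mMDSC 3 of 20 rose (median 0.26), Ppp1r15a (0.68), Asns (0.86) and Hspa5 (0.41), where 3.02% of all genes tested rose. No gene of this list had a response that passed the test of the difference. The Hspa5 call in gMDSC did not pass without any 1 of vehicle gMDSC 1, 2, 4 or CBPi gMDSC 6, 7, 8 (adjusted p up to 0.0836). The Sdf2l1 call in gMDSC did not pass without any 1 of vehicle gMDSC 1, 5 or CBPi gMDSC 6, 7, 8, 10 (adjusted p up to 0.085). The Hspa5 call in mMDSC did not pass without any 1 of vehicle mMDSC 3 or CBPi mMDSC 9, 10 (adjusted p up to 0.0646).

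**Figure D5:**
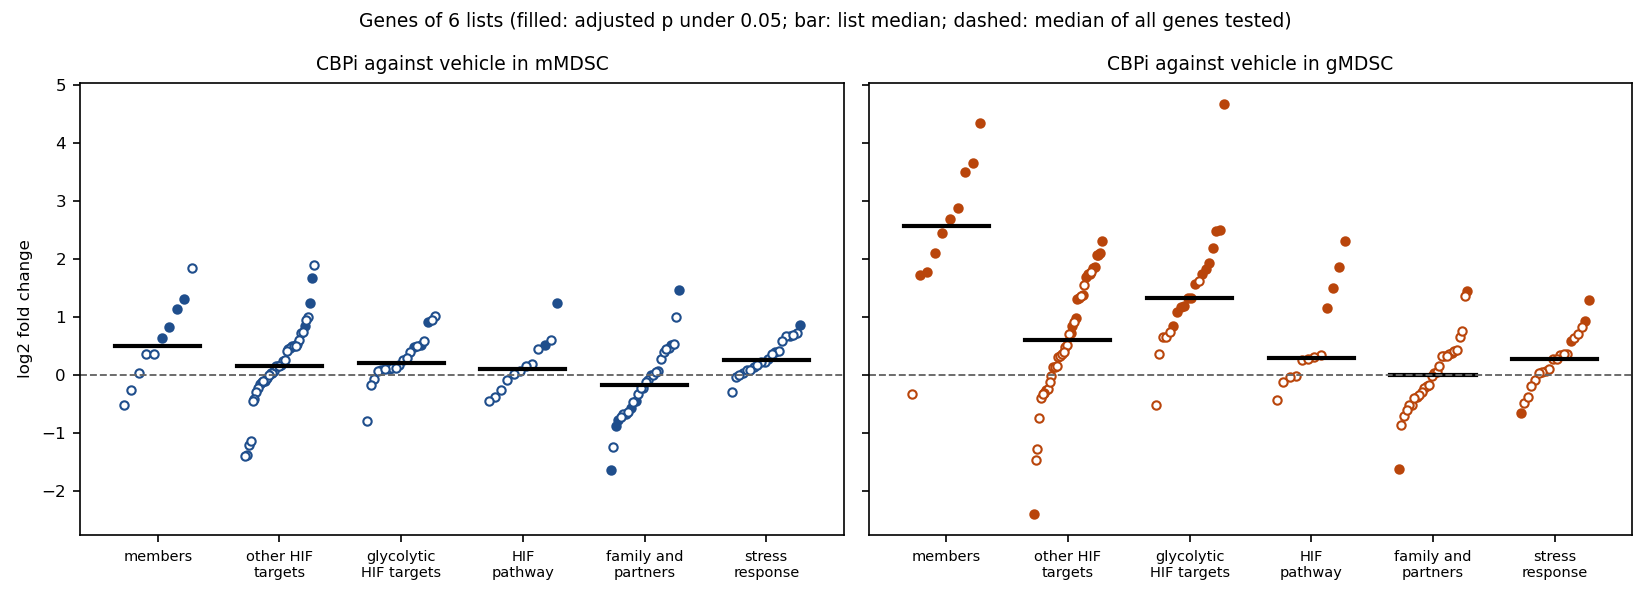
Log2 fold change with CBPi (y axis) for each tested gene of 6 lists (x axis) in mMDSC and gMDSC. Filled points passed an adjusted p of 0.05, bars are list medians and the dashed line is the median of all genes tested. In gMDSC the members' median is 2.58 and that of the glycolytic targets 1.34.

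Genes of the other lists were also compared between the populations. Of the 11576 genes in the vehicle fit, 13.6% passed as higher in gMDSC and 8.08% as lower. With vehicle, among other HIF targets 9 of 39 were higher and 2 lower in gMDSC, with the smallest p for Egln3 (2.86 ± 0.29 (SE), adjusted p = 1.34e-05) and the chemokine receptor Cxcr4 (1.91 ± 0.21 (SE), adjusted p = 2.89e-05). Of 20 glycolytic targets 6 were higher and 2 lower, with the smallest p for the lactate transporter Slc16a3 (2.86 ± 0.23 (SE), adjusted p = 2.05e-06) and the glucose transporter Slc2a1 (1.97 ± 0.18 (SE), adjusted p = 6.49e-06). G0s2, which like Hilpda inhibits ATGL, was at 5.03 ± 2.14 CPM in vehicle mMDSC and 3317 ± 1999 CPM in vehicle gMDSC (9.36 ± 0.55 (SE), adjusted p = 1.91e-07). The gene of ATGL itself, Pnpla2, was also higher in gMDSC (1.24 ± 0.13 (SE), adjusted p = 2.52e-05). With CBPi, 18 of 40 other targets were higher and 3 lower, and 16 of 20 glycolytic targets were higher and 1 lower. The shares over the 11895 genes in the CBPi fit were 20.1% up and 19.1% down.

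The genes most alike in pattern were found by the root mean square difference of centred log2 CPM over the 20 libraries, among 12688 genes. The values are descriptions. Vegfa and Ndrg1 were each other's nearest gene, at 0.31 log2 units. Hilpda was nearest to Ero1a, at 0.61. The nearest gene to P4ha1 was the heat shock cognate gene Hspa8 (0.31), and the nearest to Ankrd37 was the mitochondrial gene Fam162a (0.35). Bnip3 lay nearest to Tiparp (0.39) and Higd1a to the cell cycle inhibitor Cdkn1a (0.38). Adm was far from every gene, with Cry2 the nearest at 0.99.

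Ero1a was nearest to Hspa1b, at 0.49, a stress-induced chaperone gene whose near-identical neighbour Hspa1a was second, so the reads of this pair may be shared and both values are uncertain. Hspa1b was at 47.5 ± 6.51 CPM in vehicle gMDSC and 758 ± 404 CPM with CBPi (4.03 ± 0.34 (SE), adjusted p = 2.13e-05). In mMDSC it was at 57.9 ± 32.7 and 60.1 ± 6.12 CPM (0.05 ± 0.32 (SE), adjusted p = 0.951). Hspa1b was picked for its likeness to Ero1a over these same libraries, so its p-values are not independent evidence.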

How the data were processed

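Poly-A RNA of 20 libraries, 5 in each of 4 groups, was measured by RNA-seq. The deposited files hold whole-number counts per Entrez gene, made by the authors with GSNAP on GRCm38, per the submitters' processing notes; for the counter, annotation and strand setting the entry is "not given in the sources used here". Symbols and positions came from RefSeq tables of GRCm38.p6 (21647 of 23090 genes matched). The 10 genes and all lists were chosen with earlier results of these data known.

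Each comparison of 2 groups was fitted on its 10 libraries with edgeR 4.0.16 (R 4.3.3): TMM factors, the filterByExpr filter (minimum count 10, minimum total count 15), the quasi-likelihood test and Benjamini-Hochberg adjustment over all genes tested, with a threshold of 0.05. The difference between the CBPi responses was fitted on all 20 libraries. The SE was taken from F and the log2 fold change (its size over the root of F). CPM was scaled by TMM over 20 libraries, and the log2 CPM used for likeness had a prior count of 2. The fits were tested on simulated data. All 10 genes are described; of every other list and comparison at most 3 genes past the threshold with the smallest p were named, plus paralogs and receptors, and exceptions are marked. Alternatives were DESeq2 1.42.0, limma-voom (limma 3.58.1), RLE and upper-quartile factors, no filter, a mean of at least 10 CPM, all 20 libraries in 1 model, a replicate block, and leaving out each library. Libraries held 12372630 to 26635889 counts. Limits for a count of 0 cover counting error only.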

Additional observations from a re-analysis of the deposited data

Results flagged for a closer look

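Of the 40 sets of 5 libraries examined (10 genes in 4 groups), 4 held a library whose gap to the nearest other library took over 0.71 of the group's range, a share that chance exceeds in about 1 in 20 sets. Adm was at 0.438 CPM in vehicle gMDSC library 5, with the other 4 at 0 or 1 count, and at 5.24 CPM in CBPi gMDSC library 6. Ero1a was at 43.7 CPM in vehicle mMDSC library 4, below the others. Ndrg1 was at 34.2 CPM in vehicle gMDSC library 2, above the others. The same library 5 had the lowest Ly6g of the vehicle gMDSC group.

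The test of the difference between the CBPi responses (gMDSC minus mMDSC, log2 scale, edgeR) passed for 5 members, with 1.69 for Vegfa, 1.69 for P4ha1, 2.81 for Ero1a, 2.29 for Bnip3 and 1.58 for Ndrg1. Among HIF targets it passed at 1.86 for Kdm3a, 1.56 for Hmox1, 1.56 for Pfkl, 1.53 for Pfkp, 2.37 for Pfkfb3, 3.66 for Aldoc, 1.199 for Tpi1 and 1.03 for Ldha. Hif1a was at 1.70, the lipid droplet gene Plin2 at 1.39 and the monocyte marker F13a1 at 3.19. Of the 2 genes nearest in pattern to each member, it passed at 1.49 for Hspa8, 3.94 for Hspa1b, 3.96 for Hspa1a, 1.73 for Tiparp, 2.00 for Mx2 and 1.62 for Npepps. All these estimates were higher in gMDSC than in mMDSC. The genes nearest in pattern were picked for their likeness to a member over the same 20 libraries. That they passed is therefore not support.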

How the results depend on the processing

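Of the members called in gMDSC, 166 of 169 values under the alternatives kept direction and call, and in mMDSC 66 of 68. All 133 such values of the comparison under CBPi kept theirs. In mMDSC, 2 members rose with all 20 libraries in 1 model. The members whose responses differed numbered 8 with DESeq2, 3 without CBPi gMDSC libraries 6 and 7 together, and 3 to 6 when single libraries were left out. In the vehicle comparison of populations 1 member was higher with DESeq2, 1 with a mean of at least 10 CPM, and 0 to 1 when single libraries were left out. There 1 was lower (P4ha1) without vehicle gMDSC libraries 3 and 5 together. The cause was not tested. Beyond the threshold, DESeq2 also called Adm and P4ha1 in mMDSC (P4ha1 also with upper-quartile factors and with a mean of at least 10 CPM) and Bnip3l between populations under CBPi.

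Values near 0 turned sign. Higd1a in mMDSC ranged from -0.14 to 0.37 and Hspa1b from -0.13 to 0.35 when single libraries were left out. The Bnip3l difference ranged from -0.028 to 0.41, and was -0.16 without vehicle gMDSC libraries 3 and 5. Hilpda between populations with vehicle ranged from -0.22 to 0.65, and was -0.13 without those 2 libraries, and Ankrd37 from -0.57 to 0.012.

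Same-numbered libraries of the 2 populations had correlations of their deviations from the group means of -0.03 to 0.17, 2 of 10 over 0.1, and 4 of 10 correlated best with their own number. The numbers were therefore not used as pairs; whether same-numbered libraries share a mouse is not given by the labels. With a replicate block, the members whose responses differed numbered 4, those that differed with vehicle 0 and those higher under CBPi 8.

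Counts over all genes moved more. Genes that rose in mMDSC numbered 360 in the reported fit, 678 with DESeq2, 165 in the 20-library model and 221 to 235 without vehicle library 2 or 3 or CBPi library 9 or 10. In gMDSC 489 rose and 646 fell; 866 and 1060 did with DESeq2, 872 and 1310 in the 20-library model, 282 and 426 without CBPi library 6, 229 and 358 without library 7, and 111 and 195 without libraries 6 and 7. Responses differed for 63 and 29 genes, against 184 and 93 with DESeq2, 33 and 19 with the replicate block, and 18 and 18 without libraries 6 and 7. With limma-voom 17 differed toward mMDSC. With vehicle, 935 genes were lower in gMDSC, and 1519 were in the 20-library model; under CBPi, 2270 were, and 1509 were without libraries 6 and 7. The median of all genes with vehicle moved to -0.12 with limma-voom and with the block. Depth limits Adm, Bnip3, Bnip3l and Higd1a.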
